A study of Mus musculus with 2 samples.

Results

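Genes that encode chromatin-modifying enzymes were read in liver RNA from a control sample and from a sample taken 5 weeks after whole-body gamma irradiation. The set was chosen by gene symbol: the Hdac, Sirt, Kdm, Kmt2, Setd (with Setdb), Prmt, Tet, Kat and Ezh families, with Dnmt1, Dnmt3a, Dnmt3b, Uhrf1, Ep300, Crebbp and Dot1l. It held 76 of the 22180 genes that had a probe set with exactly 1 symbol. A further 3 symbols of these families, Prmt2, Kat14 and Kdm2b, stood only on probe sets shared with another gene and are no members. Suv39h1 and Suv39h2 belong to the same set by name, but no probe set was annotated with either symbol, so they were not analysed here. Katanin genes, whose symbols also begin with Kat, were left out.

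The mice were males of the inbred strain C57BL/6, sampled at 9 weeks of age in both groups. The irradiated group received 6 Gy as a single gamma-ray dose at 4 weeks of age, at 0.81 Gy per minute and under anaesthesia. The control was untreated, and the labels do not state whether it was anaesthetised or sham-handled. Each group was 1 array, and whether its RNA came from 1 mouse or several is not stated.

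Histone tails carry acetyl and methyl groups that are added by writer enzymes and removed by erasers, and DNA carries methyl groups on cytosine. Acetylation opens chromatin and goes with active genes, while the effect of methylation depends on the residue. The enzymes draw on central metabolites: acetyltransferases use acetyl-CoA, methyltransferases S-adenosylmethionine, sirtuins NAD, and most demethylases and the Tet enzymes 2-oxoglutarate. In liver, Hdac3 and the sirtuins are known for their part in lipid and fasting metabolism.

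Values are log2 RMA values, in which 1 unit is a doubling, and differences are irradiated minus control. Expressed genes are those with a value of at least 6.06 on either array, the middle of the whole table, which is a rank and not a measured background. That left 72 members, each above the floor on both arrays, and the other 4, Hdac9, Kdm4d, Prmt8 and Tet1, were below it on both, with values from 4.48 to 6.04 and differences from -0.15 to 0.16. Since each group is a single array, differences could not be tested or checked against replicates. Levels of different probe sets are not compared with each other. The array medians were 6.05 and 6.07. Members past a fixed size were counted beside the share of all 13689 expressed genes past the same size.

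Across the set, differences between the arrays were small. They ran from -0.36 for Sirt4 to 0.28 for Dnmt1, with a median of 0.03 against -0.00 over all expressed genes. Of the 72, 40 were above 0 (55.6%), against 48.5% of all expressed genes. The same 48.5% is the background for each count above 0 in the groups and lists that follow. None was at least 1.5-fold higher or lower, where the background was 1.14% and 0.65%. At a smaller size, a difference of 0.32, 0 members were higher and 2 were lower, Sirt4 and Sirt5. The background there was 4.65% higher and 3.75% lower, and the members' share lower, 2.78%, was below it. Among all genes that reached 7.64, the 75th percentile of all values, 2.95% were higher by that size and 3.4% lower. The count of 2 members was 1 with the floor at 7.64 and 0 with 32 added on the linear scale. All 72 members lay inside the central 95% of expressed genes, from -0.37 to 0.42, and 41 of them (56.9%) lay within 0.1 of 0, against 47.8% of expressed genes. The interquartile range was 0.19 for the members and 0.21 for all expressed genes.

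**Figure D1:**
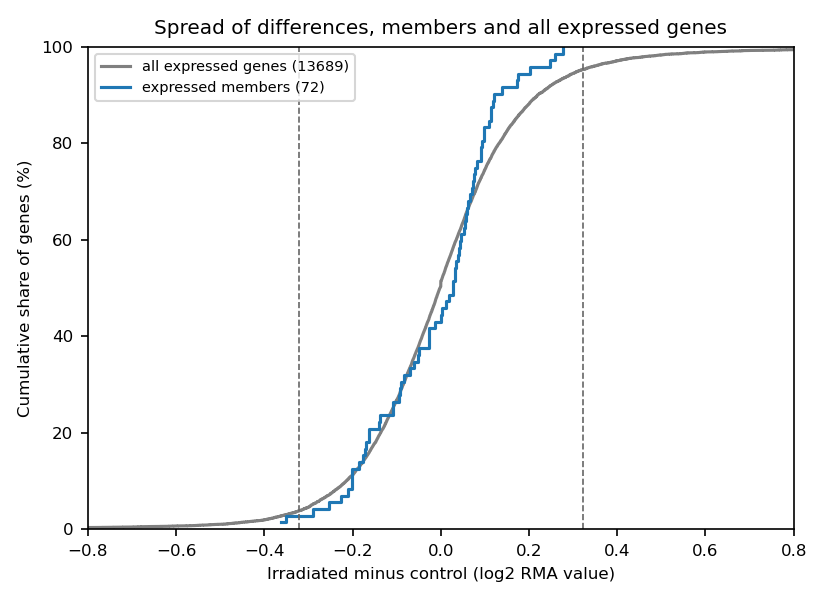
Cumulative share of genes (%) against the difference between the arrays (irradiated minus control, log2 RMA value), for the 72 expressed members (blue) and all 13689 expressed genes (grey), with dashed lines at differences of 0.32 in either direction. The 2 curves run close together near the middle, and the members end at -0.36 and 0.28 while the grey curve runs past both dashed lines.

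Marker genes of liver cell types, and of pancreas and gut, were read beside these values, since in bulk RNA fewer cells of a type and less RNA per cell cannot be told apart. All 10 hepatocyte markers were above the floor on both arrays, with a median difference of -0.00, and their summed linear level was 93813 in the control and 94559 after irradiation. Bile duct markers were above 0 in 7 of 7 expressed genes, and their sum was 745 and 2074. They were uneven: Muc1 and Cd24a differed by 2.62 and 2.50, and Krt19, Epcam and Prom1 by 1.20, 0.75 and 0.69. Krt7 and Sox9 differed by 0.29 and 0.19, so the sum does not give the size of a change shared by the list. Stellate and smooth muscle markers were above 0 in 9 of 10, with sums of 2807 and 4724. Within this list the contractile genes Acta2, Cnn1 and Tagln differed by 1.97, 2.42 and 0.59. Des, Lrat, Rgs5 and Pdgfrb differed by 0.95, 0.18, 0.16 and -0.01. Kupffer cell and macrophage markers were above 0 in 8 of 10, with sums of 6027 and 7023. Pancreas and gut markers were above 0 in 5 of 6, with sums of 635 and 1736. Of those above 0, Reg1, Vil1 and Cdx2 were below the floor in the control. They counted as expressed only through the irradiated array, so the filter fixed their direction. The sums of this list and of the bile duct list each include 1 gene below the floor on both arrays, Prss2 and Cftr. Endothelial markers, all 8 expressed, had sums of 10930 and 10844. The sums of lymphocyte markers (792 and 793), erythroid markers (704 and 704) and neutrophil markers (380 and 355) include genes below the floor on both arrays, 3 of 9, 2 of 5 and 7 of 8 of them, and so say little about those cells. The part of these cells in the members' differences was not tested.

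The sirtuins, NAD-dependent enzymes that remove acetyl and longer acyl groups, held both members past 0.32. Promoter sequences of the 3 mitochondrial sirtuin genes are shown because these genes had the largest differences of their family, on the same side of 0. They are the 250 bases before the annotated start in RefSeq, build GRCm38.p6, 5′ to 3′ on the gene's strand. Capitals mark matches, on either strand, to motifs for 4 kinds of factor. The GC box, bound by Sp1, was searched as GGGCGG. The motif of the factor NF-Y was searched as CCAAT. The core of ETS family sites was searched as CCGGAAG. The E-box, bound by factors such as Myc and Clock, was searched as CACGTG. The Sirt3 window is chr7:140882310-140882559 on the minus strand, that of Sirt4 chr5:115484298-115484547 on the minus strand and that of Sirt5 chr13:43365285-43365534 on the plus strand.
Sirt3: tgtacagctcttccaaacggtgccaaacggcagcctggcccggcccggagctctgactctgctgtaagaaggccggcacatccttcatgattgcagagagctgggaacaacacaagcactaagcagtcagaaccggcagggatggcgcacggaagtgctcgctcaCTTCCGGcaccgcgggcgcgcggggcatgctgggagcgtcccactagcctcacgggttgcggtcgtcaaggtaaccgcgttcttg
Sirt4: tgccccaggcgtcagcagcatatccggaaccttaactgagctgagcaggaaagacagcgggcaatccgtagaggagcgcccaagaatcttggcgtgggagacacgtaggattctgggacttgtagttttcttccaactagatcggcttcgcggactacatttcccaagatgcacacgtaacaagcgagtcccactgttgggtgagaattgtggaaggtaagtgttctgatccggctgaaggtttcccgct
Sirt5: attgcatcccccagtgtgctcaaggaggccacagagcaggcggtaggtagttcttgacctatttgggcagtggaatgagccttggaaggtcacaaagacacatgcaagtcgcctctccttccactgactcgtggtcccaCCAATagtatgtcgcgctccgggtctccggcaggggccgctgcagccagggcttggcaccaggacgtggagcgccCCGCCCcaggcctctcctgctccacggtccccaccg
The Sirt3 window held 1 ETS match, the Sirt5 window 1 GC box and 1 NF-Y match, and the Sirt4 window none of the 4 motifs. No motif was therefore common to all 3. A second annotated start of Sirt3 had 3 GC boxes and 1 NF-Y match. Of all 32851 start sites in the table, 6.91% held the ETS letters, 32.7% the GC box and 33.8% the NF-Y letters. A match is a run of letters and shows no binding.

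Sirt4, which encodes a mitochondrial ADP-ribosyltransferase and lipoamidase, read 6.83 in the control and 6.47 after irradiation. The difference was -0.36, or 1.29-fold lower, at percentile 2.68 of the differences of all expressed genes. Sirt5, whose product removes succinyl, malonyl and glutaryl groups from mitochondrial proteins, read 8.11 and 7.76. It was 1.28-fold lower (-0.35), at percentile 2.98. Sirt3, the main mitochondrial deacetylase, read 10.00 and 9.77, a difference of -0.23, the fifth lowest of the 72. All 3 were lower on the irradiated array, and grouping them by compartment was chosen after their values were seen.

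The other sirtuins differed by less than 0.1. Sirt1, the nuclear deacetylase that acts on p53 and on metabolic regulators, read 9.20 and 9.15, and the mainly cytosolic Sirt2 read 11.08 and 11.03. Sirt6, a chromatin-bound enzyme linked to DNA repair and glucose metabolism, read 8.44 and 8.42, and the nucleolar Sirt7 read 9.11 and 9.01. All 7 sirtuins were thus below 0 (median -0.09), where 48.5% of expressed genes were above it. Each stayed below 0 under loess and quantile scaling of the same arrays. The floors, of which that at 7.64 left Sirt4 out, the centring, the offset and the averaging of probe sets could not have changed their sign. Each of these genes had 1 probe set. The 65 expressed members outside the sirtuin family had a median of 0.03, with 40 above 0. This split was also made after the values were seen. Leaving out a family wholly below 0 keeps the same 40 genes above it, so the contrast was fixed by the choice.

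**Figure D2:**
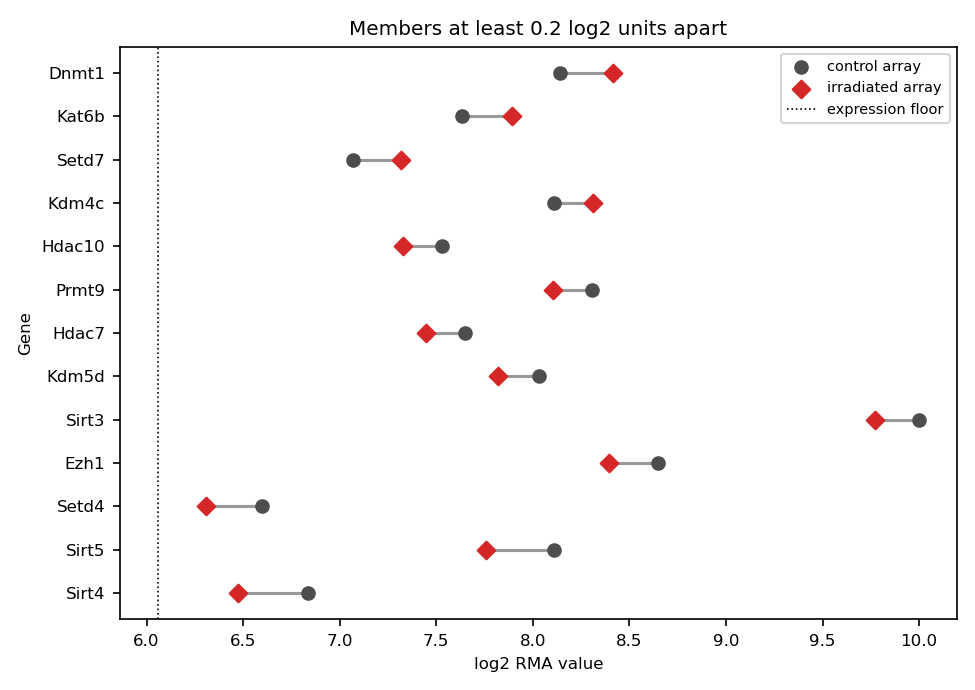
Log2 RMA values on the control array (grey circles) and the irradiated array (red diamonds) for the 13 members that differed by at least 0.2, with the expression floor as a dotted line. That size was reached upward by 5.56% of expressed members and 11.8% of all expressed genes, and downward by 12.5% and 11.3%. Sirt4 and Sirt5 have the longest bars toward lower values and Dnmt1, Kat6b and Setd7 the longest toward higher ones, and each point is 1 array.

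Genes that make, use or recycle the cofactors of these enzymes were read from a separate list. It includes users such as Nnmt and Gnmt, so its summary does not measure supply. Of its 20 expressed genes 7 were above 0, with a median of -0.04, 0 higher by at least 0.32 and 2 lower by as much, beside 4.65% and 3.75% of all expressed genes. The 2 were Acss2, which makes acetyl-CoA from acetate, at -0.35 (11.05 and 10.70), and Nmnat3, a mitochondrial NAD synthesis enzyme, at -0.33 (7.32 and 7.0). In the NAD pathway, Nampt, the rate-limiting salvage enzyme, differed by 0.18 and the nuclear Nmnat1 by -0.24. Mat1a, which makes S-adenosylmethionine in liver, read 13.47 on both arrays, a difference of -0.00. Acly, which makes acetyl-CoA from citrate, differed by -0.01, and the mitochondrial 2-oxoglutarate genes Idh2, Ogdh and Idh3a by 0.02, 0.06 and -0.18.

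The zinc-dependent histone deacetylases were read by class. Class I genes encode the catalytic subunits of the nuclear corepressor complexes and had a median of 0.07 over 4 members. Hdac1 read 9.62 and 9.69, and Hdac2, its partner in the Sin3, NuRD and CoREST complexes, 8.64 and 8.75. Hdac3, the enzyme of the NCoR and SMRT corepressors, read 11.13 and 11.10, and Hdac8, which deacetylates cohesin, 6.72 and 6.79. None of the 4 differed by more than 0.11.

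The 6 expressed genes of classes II and IV had a median of -0.12, with 2 above 0. Hdac7, a signal-responsive class IIa enzyme prominent in endothelium, read 7.65 and 7.44, and Hdac10, a polyamine deacetylase, 7.53 and 7.33. Both were lower by 0.20, a size that 11.3% of expressed genes reached in that direction. Hdac11, the class IV enzyme, differed by -0.18 (8.81 and 8.63), but its second probe set differed by 0.14 (6.47 and 6.61), so its direction depended on the probe set. With probe sets averaged, the median of these 6 genes was -0.04. The class IIa genes Hdac5 and Hdac4 differed by -0.06 and 0.08. Hdac6, the cytoplasmic tubulin deacetylase, was the highest of the group at 0.17 (8.18 and 8.35). Subunits of the corepressor complexes named above for class I had a median of 0.05, with 12 of 23 expressed genes above 0 and none past 0.32.

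Of the lysine acetyltransferases, 8 of 9 members were above 0 (median 0.05), against 48.5% of all expressed genes. The paralogues Kat6b and Kat6a encode MORF and MOZ, which acetylate histone H3, and had the largest positive differences of the group. Kat6b read 7.63 and 7.89, a difference of 0.26 or 1.20-fold, and Kat6a 8.30 and 8.47, a difference of 0.17. Of 5 subunits of their complexes, picked after the values were seen, 3 were below 0 and 2 above. Ing5 differed by -0.16, Brpf1 by -0.11 and Brpf3 by -0.06, and Meaf6 by 0.10 and Brd1 by 0.09.

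Crebbp and Ep300, the broad transcriptional coactivators CBP and p300, differed by 0.12 (10.35 and 10.46) and 0.03 (9.41 and 9.44). Kat2a, the enzyme of the SAGA complex also known as GCN5, differed by 0.10, and its paralogue Kat2b by 0.00. Kat8, the histone H4 acetyltransferase MOF, differed by 0.05, and Kat7, its relative HBO1, by 0.04. Kat5, the Tip60 enzyme that acetylates histones and ATM at DNA breaks, was the member below 0, at -0.08 (8.45 and 8.36). Other acetyltransferases and the subunits of these complexes were above 0 in 17 of 30 expressed genes, with a median of 0.02 and none past 0.32.

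**Figure D3:**
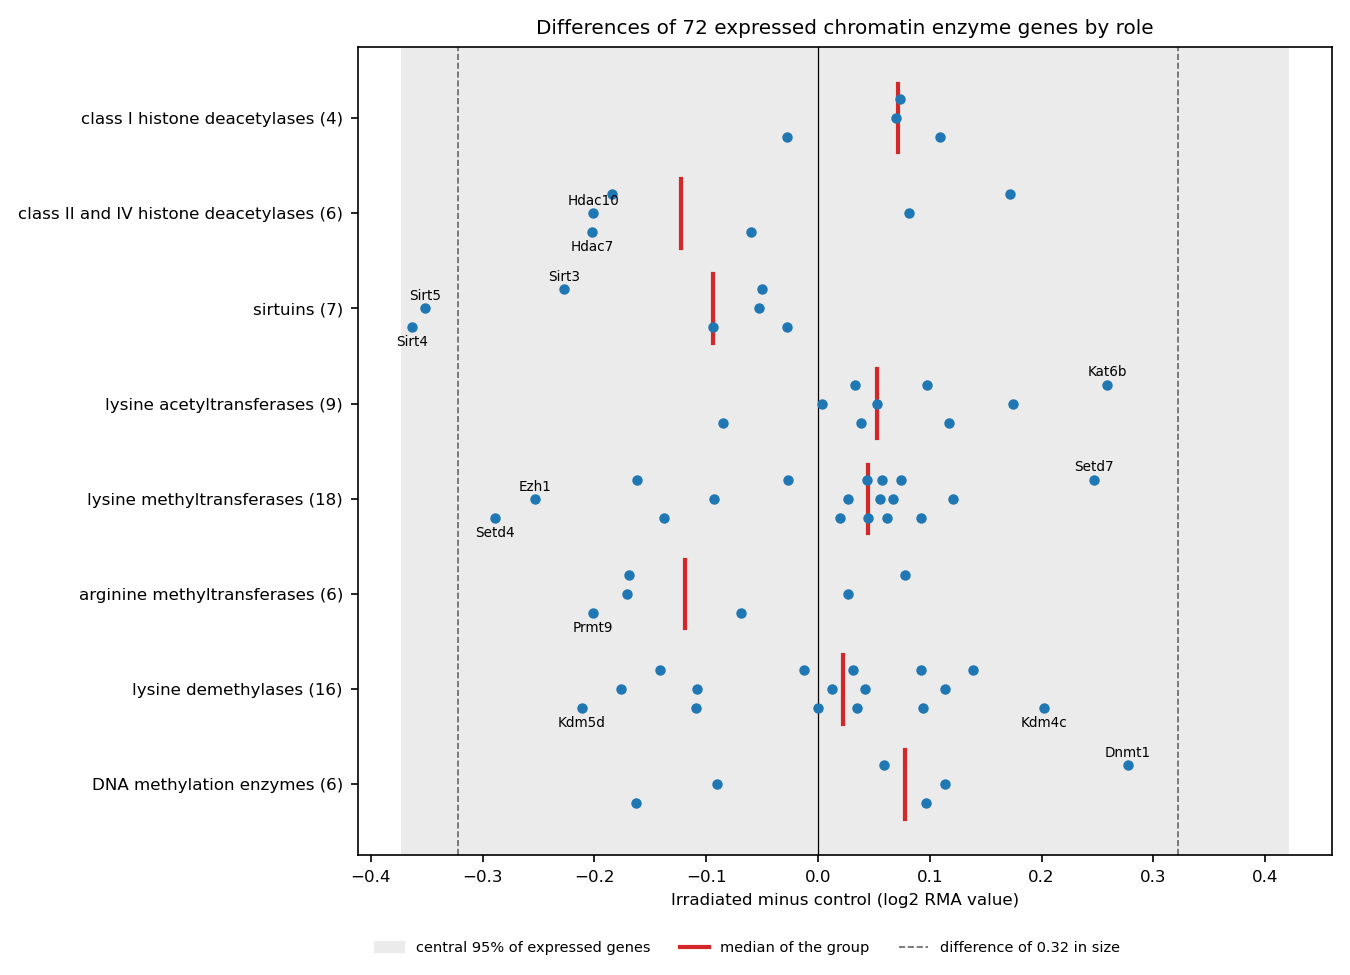
Difference between the arrays (irradiated minus control, log2 RMA value) for each of the 72 expressed members, in 8 groups by role, with the median of a group in red, dashed lines at differences of 0.32 and the central 95% of expressed genes shaded; members at least 0.2 apart are named. All 7 sirtuins lie below 0 and 8 of 9 lysine acetyltransferases above it, where 48.5% of all expressed genes were above 0. Sirt4 and Sirt5 are the points past a dashed line.

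Among the lysine methyltransferases, 12 of 18 were above 0, against 48.5% of all expressed genes, and the median was 0.04. The trithorax-type H3K4 writers lay close together: Kmt2a read 8.45 and 8.50, Kmt2b 8.03 and 8.0, Kmt2c 8.70 and 8.74, and Kmt2d 8.28 and 8.40. Setd1a and Setd1b, which place most of the trimethyl mark at H3K4, differed by 0.09 and 0.02. These 6 genes had a median of 0.05. Subunits of their COMPASS complexes, not all of them shared between the complexes, had a median of 0.00 over 13 genes. Kmt2e, of the same family, differed by 0.07.

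Ezh1 and Ezh2 are the alternative catalytic subunits of PRC2, the Polycomb complex that methylates H3K27. Ezh1, the form that persists in resting cells, read 8.65 and 8.39, a difference of -0.25 or 1.19-fold lower. Ezh2, the form of dividing cells, read 8.13 and 8.19, a difference of 0.07. Of the PRC2 partners 5 of 10 were above 0, with a median of 0.01. The core subunits Suz12 and Eed differed by -0.01 and -0.14, and the accessory subunits Phf1 and Jarid2 by -0.30 and 0.16.

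Setd7, which adds a single methyl group to H3K4 and to many other proteins, read 7.07 and 7.32, a difference of 0.25. Setd4 read 6.60 and 6.31 and at -0.29 was the lowest methyltransferase gene, close to the floor. Dot1l, which methylates H3K79 on transcribed genes, differed by -0.16 (9.04 and 8.88) and Setd5 by -0.14. Setd2, the writer of trimethyl H3K36, differed by 0.04. The H3K9 writers Setdb1 and Setdb2 differed by -0.09 and 0.06. Setd3, an actin histidine methyltransferase, differed by 0.03 and Setd6, which methylates the NF-kB subunit RelA, by 0.06. Further histone methyltransferases outside the set had a median of 0.03 over 17 genes, among them the H3K9 enzyme gene Ehmt2 at 0.22.

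The 6 expressed arginine methyltransferase genes had a median of -0.12, and 2 were above 0. Prmt5, the main source of symmetric dimethylarginine, read 9.49 and 9.32, a difference of -0.17. Prmt3, which methylates a ribosomal protein, read 7.89 and 7.72 (-0.17), and Prmt9, which methylates a splicing factor, 8.31 and 8.11 (-0.20). Each was between 1.12-fold and 1.15-fold lower. Prmt1, the main source of asymmetric dimethylarginine, differed by 0.08 (6.40 and 6.47), Prmt6, which methylates histone H3, by -0.07, and Prmt7, which adds single methyl groups, by 0.03. The median of the group was -0.07 with no filter on low values and -0.17 with the floor at 7.64.

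The lysine demethylase genes, 16 expressed members, had a median of 0.02 and 9 were above 0. The Kdm5 family removes methyl groups from H3K4, and 3 of its 4 genes were below 0, where 48.5% of all expressed genes were above it. Kdm5d, on the Y chromosome, read 8.03 and 7.82 (-0.21), Kdm5a 8.30 and 8.12 (-0.18), and Kdm5b 8.58 and 8.44 (-0.14). The X-linked copy Kdm5c read 9.32 and 9.35 (0.03). Its autosomal and Y-linked relatives were lower on the irradiated array and Kdm5c was not. Kdm1a and Kdm1b, flavin-dependent enzymes for the same residue, differed by 0.09 and 0.01. The 6 H3K4 erasers together had a median of -0.06, with 3 above 0, beside 0.05 for the 6 H3K4 writers, with 5 above 0. Both medians lay inside the interquartile range of all expressed genes, from -0.11 to 0.10. Setd7, at 0.25, is not in that list of writers.

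The H3K9 erasers were above 0 in 4 of 5 expressed genes, against 48.5% of all expressed genes, with a median of 0.09. Kdm4c was the highest demethylase gene at 0.20 (8.11 and 8.31), followed by Kdm3a, a hypoxia-inducible enzyme, at 0.14 (8.36 and 8.50). Kdm4a and Kdm4b differed by 0.09 and 0.04, and Kdm3b by -0.11. For H3K27 the X-linked Kdm6a differed by 0.11 (9.08 and 9.20) and Kdm6b, which inflammatory signals can induce, by -0.11 (8.99 and 8.88). A second probe set of Kdm6b was below the floor on both arrays and differed by 0.09. Uty, the Y-linked copy of Kdm6a, differed by 0.03, so the lower Y-linked value of Kdm5d was not shared by it. Kdm2a, an H3K36 eraser, differed by -0.00, Kdm7a by -0.01 and Kdm8 by 0.03. Of the genes for other proteins with the JmjC fold, 6 of 9 were above 0 (median 0.05). The highest of them, Hr at 0.22 (5.92 and 6.13), reached the floor only on the irradiated array, so the filter fixed its direction.

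Dnmt1, the maintenance DNA methyltransferase that copies methylation after replication, had the highest difference of the set. It read 8.14 and 8.42, a difference of 0.28 or 1.21-fold, at percentile 93.5 of all expressed genes. Uhrf1, which brings Dnmt1 to newly copied DNA, read 6.62 and 6.53, a difference of -0.09 in the other direction. The enzymes that set new methylation differed by 0.06 for Dnmt3a (6.93 and 6.99) and -0.16 for Dnmt3b (6.43 and 6.27). Tet2 and Tet3, which oxidise methylcytosine on the way to its removal, differed by 0.11 (8.19 and 8.31) and 0.10 (8.15 and 8.24), and Tet1 was below the floor on both arrays.

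Dnmt1 and Uhrf1 are also cell cycle genes, and proliferation genes were read beside them. Of these, 18 of 24 expressed genes were above 0, with a median of 0.13, 5 higher by at least 0.32 and 1 lower by as much. Of all expressed genes, 48.5% were above 0, 4.65% were higher by that size and 3.75% lower. The mitotic kinase gene Cdk1 was at 0.46 (7.29 and 7.74), the replication helicase gene Mcm6 at 0.44 (6.76 and 7.20), and Birc5, a mitotic regulator also called survivin, at -0.55 (6.16 and 5.61). Birc5, the gene counted as lower, and Foxm1 reached the floor only on the control array. Kif11 and Bub1b reached it only on the irradiated array, so for these genes the filter fixed the direction. Pcna, the sliding clamp that recruits Dnmt1, differed by 0.12. Their part in the value of Dnmt1 was not tested. DNA methylation partners had a median of -0.05 over 9 expressed genes. One of them, Trdmt1, a transfer RNA methyltransferase related in sequence to the DNA enzymes, was at -0.41 (7.33 and 6.92).

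Partners of these enzymes in chromatin complexes also differed little between the arrays. Over 176 expressed genes of the 10 partner lists, 95 were above 0 and the median was 0.02, with 2 higher by at least 0.32 and 1 lower by as much, where the background was 4.65% and 3.75%. Besides Trdmt1, these were Pcgf2, a PRC1 subunit, at 0.41 (6.51 and 6.92), and the chromatin reader gene L3mbtl3 at 0.35 (7.45 and 7.81). In the count above 0, Hr and Mbd4 reached the floor only on the irradiated array. Pagr1a, below 0, reached it only on the control array, so the filter fixed the direction of these genes. PRC1 subunits had a median of -0.02 over 16 genes, SWI/SNF remodelling subunits 0.01 over 22, and readers of acetyl-lysine and methyl-lysine 0.06 over 27.

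**Figure D4:**
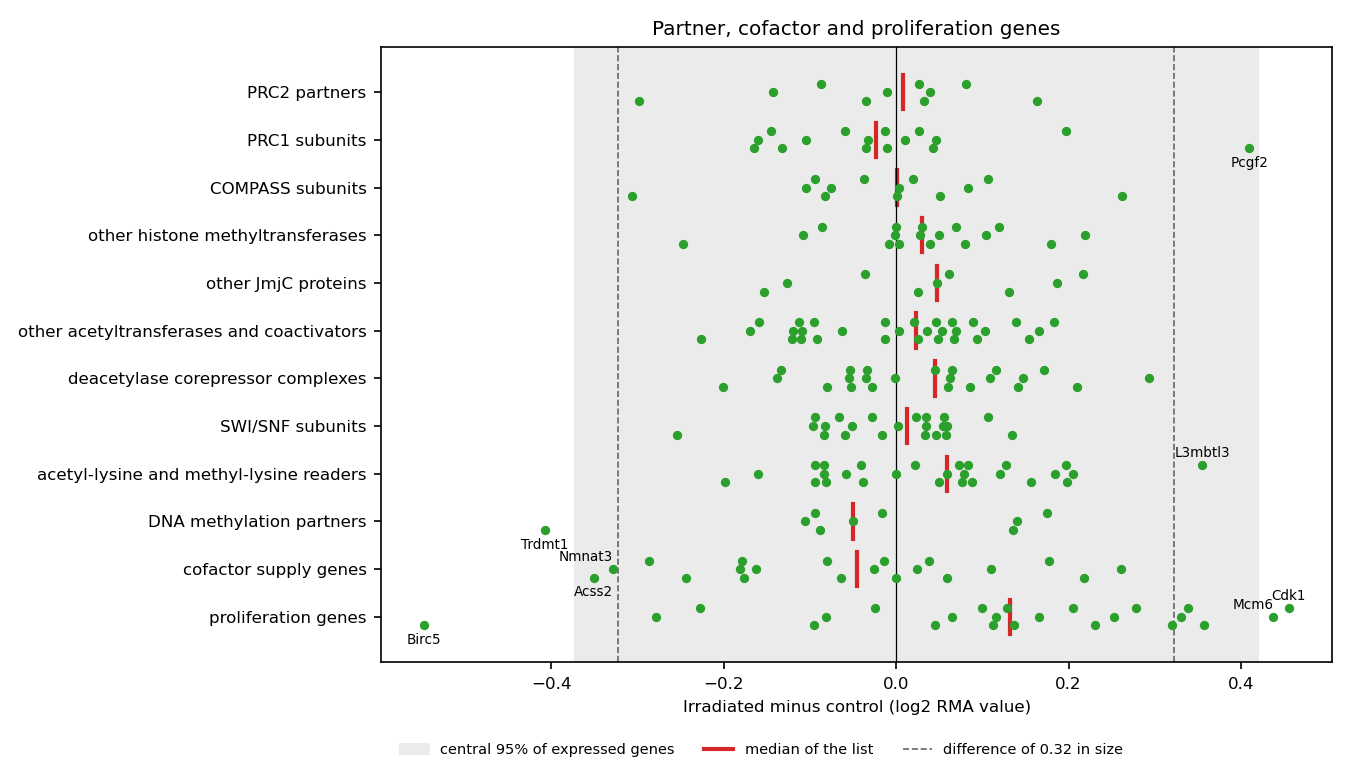
Difference between the arrays (irradiated minus control, log2 RMA value) for expressed genes of the partner lists, the cofactor genes and the proliferation genes, with list medians in red, dashed lines at differences of 0.32 and the central 95% of expressed genes shaded; up to 3 genes past 0.32 are named per list. List medians run from -0.05 to 0.13, with the proliferation genes highest.

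Promoter windows of the members were read for what the symbols did not fix. Of the 76 members, 64 matched the RefSeq promoter table by gene identifier, with 84 start sites. In the 250 bases before the start, the median ratio of observed to expected CpG was 0.76, against 0.37 over all 32851 start sites, and the median GC content 61% against 52.4%. The GC box was found at 50 of the 84 member start sites (59.5%, against 32.7% of all) and the ETS letters at 10 (11.9%, against 6.91%). The NF-Y letters stood at 33 (39.3%, against 33.8%) and the E-box at 7 (8.33%, against 6.02%). All start sites in the table include those of non-coding and tissue-restricted genes, so these shares describe the windows only.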

How the data were processed

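Liver RNA of 2 samples, 1 control and 1 irradiated, was hybridised to 1 Affymetrix array each. The deposited log2 values were made by the authors with RMA, a method that corrects background, normalizes arrays and summarises probes, and the submitters' processing notes name Affymetrix Expression Console 1.3.1. The deposited table holds 41345 probe sets. Its log2 scale was read from the range of the values, 1.46 to 13.9, since the log base is not written in it. RMA equalises the arrays, so a difference in total RNA per cell cannot be seen. Precision is limited by the number of arrays, with no measure of how animals vary.

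Gene names came from GEO's platform annotation, which can be old: 23521 probe sets had 1 symbol, 1814 several and 16010 none. For each gene the probe set with the highest mean was kept, and 2 members, Hdac11 and Kdm6b, had more than 1. Every member could be named, and partner lists gave up to 3 genes past a difference of 0.32 each. Members and lists were chosen with earlier results of these data known, and the promoter motifs after the differences were seen. The counting code was run on simulated data with planted differences larger than 0.32 and little noise, which checks the code and not the differences reported here. Python 3.11.15, pandas 2.3.3 and statsmodels 0.14.6 were used. The alternatives changed the floor, the scaling, the probe set choice, an offset of 32 on the linear scale and the gene names. A single difference was taken as moved at 0.1 and a median at 0.05.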

Additional observations from a re-analysis of the deposited data

Results flagged for a closer look

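Probe sets annotated with several symbols did not enter the comparisons, and 2 of them that carry a symbol of these families read higher after irradiation by at least 0.32. The probe set shared by Prmt2 and Mir678 read 5.85 and 6.25, a difference of 0.40, and was below the expression floor in the control. The probe set shared by Kdm7a and 4930599N23Rik read 5.86 and 6.19, a difference of 0.33, also from below the floor, whereas the probe set of Kdm7a alone differed by -0.01. Which transcript these probe sets measure cannot be told apart here. No group had enough samples for an outlier to be looked for.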

How the results depend on the processing

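No paired analysis was possible because there was 1 sample per group. Sirt4 and Sirt5 stayed below 0 under every alternative that kept them, with differences from -0.39 to -0.28 and from -0.35 to -0.31. Most of the alternatives could not change the sign of a gene with 1 probe set, so this says little about their direction. The count of members lower by at least 0.32 was 1 with the floor at the 75th percentile, which left out Sirt4, and 0 with 32 added on the linear scale, which shrinks differences. No alternative run put a member past 0.32 higher or past 1.5-fold in either direction. Class II and IV deacetylases had a median of -0.060 with no filter, since Hdac9 then entered, and -0.060 with the 75th percentile floor. With the mean over probe sets it was -0.042, as Hdac11 came to -0.02. Arginine methyltransferases had a median of -0.069 with no filter and -0.17 with the 75th percentile floor, from fewer genes. Loess and quantile scaling each changed the sign of 2 members, none of which differed by more than 0.013. Centring changed nothing, because the median difference of all genes was 0, and updating symbols changed no member.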

Other observations

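Identical values on both arrays were seen for 523 of the 22180 genes and for 1016 of the 41345 probe sets. The probe set shared by Kdm2b and Gm2479 was among them, at 6.86 on both arrays. Hells, a remodelling factor that aids DNA methylation, was below the floor on both arrays (5.37 and 5.76) and so entered no count, with a difference of 0.39.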
